A study of Mus musculus with 9 samples.

Results

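Arrays of RAW 264.7 cells stimulated with bacterial lipopolysaccharide (LPS, 100 ng/ml for 18 h) were compared with arrays of untreated RAW 264.7 cells, 3 against 3, which together make up 6 of the 9 arrays in the series. The arrays were assigned by their titles, and 22626 of the 22690 probe sets on the array entered the comparison, all except the 64 control probe sets. RAW 264.7 is an established mouse macrophage line that was derived from a virus-induced tumour and divides continuously in culture. The other 3 arrays carry RNA of RAW 264.7 cells that constitutively overexpress CstF-64, a protein of mRNA 3′ end formation; the labels name no LPS for them, and they serve here for the spread between arrays and as further unstimulated values. Since the labels do not say whether the 3 arrays of a group came from separate cultures, p-values reflect the spread among these arrays alone, and that spread may be technical.

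LPS is a component of the outer membrane of Gram-negative bacteria. Macrophages sense it through CD14 and Toll-like receptor 4, which signals through NF-kappaB and MAP kinases to inflammatory genes and through IRF3 to interferon beta. Secreted interferon then acts back on the cells through STAT proteins and IRF9 and induces antiviral genes, and LPS is known to halt the division of macrophages.

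The arrays were of like quality, apart from lower medians on the LPS arrays. Median intensities were 49.3, 45.6 and 42.8 on LPS 1 to 3 and 51.1 to 54.2 on the untreated and CstF-64 arrays, on the deposited linear scale. This difference cannot be told apart from the treatment. Between 56.1% and 61.1% of probe sets exceeded the background limit of 31.2 (the brightest of 27 control probe sets for Bacillus transcripts), with the lowest shares on LPS 2 (57.3%) and LPS 3 (56.1%). The ratio of 3′ to 5′ signal was 1.03 to 1.22 for actin. Array LPS 1 stood apart: it correlated with the other LPS arrays at 0.965 and 0.967, while LPS 2 and LPS 3 correlated at 0.988. All 12 macrophage markers were above the background limit, among them Csf1r, the receptor for colony-stimulating factor 1, Adgre1, which encodes F4/80, and the lysosomal protein gene Cd68. Adgre1, Itgam, Fcgr1 and Cd14 rose and Csf1r and Laptm5 fell; the call of Cd14 was lost without untreated 1. Of 9 T cell markers, 7 were at or below the limit on all 6 arrays, and Cd3d and Cd3e were among them, and 2 of the 9 fell in the fit without LPS 1. Called markers of other cell types were the B cell adaptor gene Blnk (425 ± 79.9 to 800 ± 29.2) and Dcn, a proteoglycan gene of fibroblasts (7.27 ± 5.36 to 47.5 ± 13.7), out of 57 measured. The summed level of the 6 B cell markers was 499 to 627 on the untreated and 889 to 945 on the LPS arrays. Most of this sum was Blnk (378, 518 and 380 untreated, 780, 787 and 834 after LPS), and no other B cell marker was called. For 10 markers of fibroblasts and endothelium the sum was 202 to 241 and 237 to 294. The part of such cell types in the results was not tested. Each array measured RNA of a whole culture, so fewer cells of a type and less RNA per cell cannot be told apart.

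After LPS, most genes of cell division fell and most effector genes of the interferon response rose, with smaller and mixed changes in most other groups of genes. A probe set was called at an adjusted p under 0.05 in limma with Benjamini-Hochberg adjustment over all 22626 probe sets. The test called 3755 probe sets (16.6%), of which 1341 (5.93%) were higher and 2414 (10.7%) lower after LPS. At a change of at least 2-fold, 611 (2.7%) were higher and 940 (4.15%) lower. With the brightest probe set standing for each of 12393 genes, 2109 genes (17%) were called, 822 (6.63%) higher and 1287 (10.4%) lower, and 374 (3.02%) rose and 505 (4.07%) fell at least 2-fold. The ranges of the LPS and untreated arrays did not overlap for 7549 probe sets (33.4%) and 4197 genes (33.9%). Among 2246 probe sets without a single named gene, 131 (5.83%) were higher and 200 (8.9%) lower. In what follows intensities are given as deposited, with the SD over 3 arrays after ±, log2 changes are LPS minus untreated on log2(intensity + 13) with the SE of the fit after ±, and "rose" and "fell" mean called.

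The excess of lower over higher calls depended on how arrays were scaled. Higher probe sets made up 35.7% of calls on the deposited scale, 46.2% after quantile normalization and 60.5% after centring each array on its median. The median log2 change of all genes was -0.03, 0.03 and 0.13 under these scalings, and the changes below are relative to it on the deposited scale. Without array LPS 1, 1272 probe sets were higher and 2213 lower, and without untreated 2 the counts were 924 and 1475. Array LPS 1 had the largest change of the 3 LPS arrays for 62.2% of the probe sets that rose at least 2-fold and for 60.1% of those that fell at least 2-fold.

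**Figure D1:**
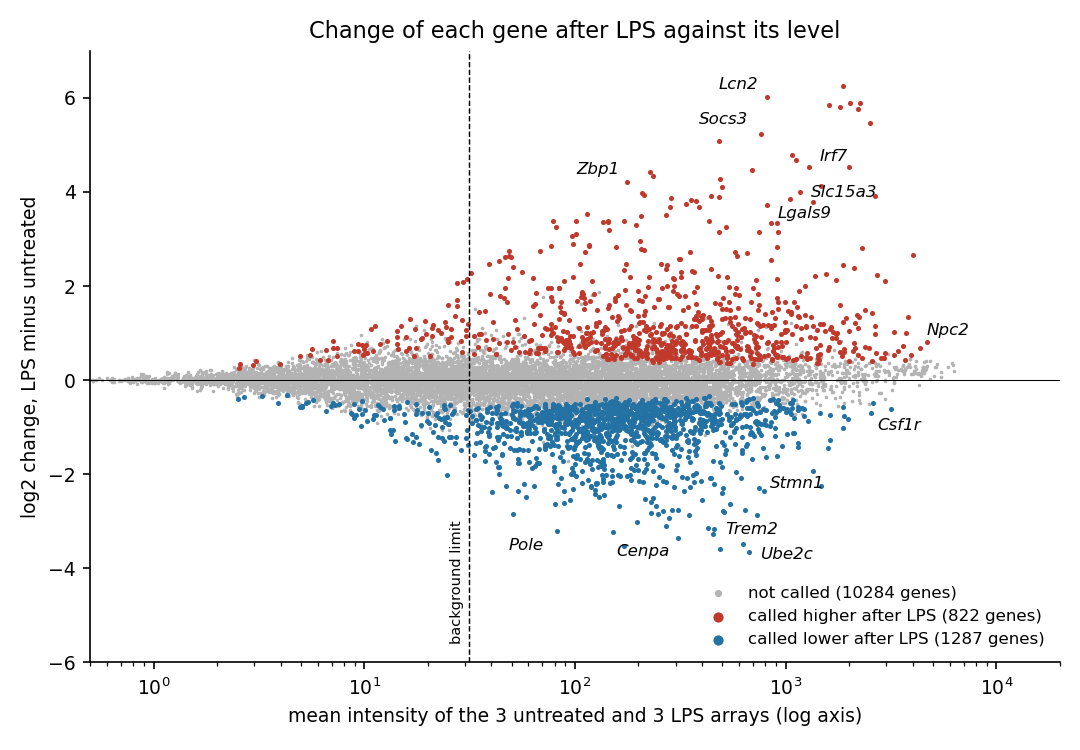
Log2 change (LPS minus untreated, vertical axis) of each of 12393 genes against its mean intensity over the 6 arrays (horizontal log axis), with called genes in colour and the background limit of 31.2 dashed. Irf7 lies at 4.52 among the larger rises and Ube2c at -3.66 at the lower edge; genes whose untreated arrays are all at background, such as Lcn2 and Socs3, are drawn at their fitted value, which is no size of change. On this scale called falls outnumber called rises (1287 against 822 genes).

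Most genes of cell division fell. Of 56 measured genes of mitosis and the kinetochore, the protein complex that ties chromosomes to the spindle, 55 fell and 1 rose, with a median log2 change of -2.23 against -0.03 over all genes. Of 50 genes of DNA replication, 41 fell and 0 rose, with a median of -1.24. At an unadjusted p under 0.05 in limma 43 were lower and 0 higher. The share of all genes at that limit was not counted, so such counts, here and below, have no background to be read against. The counts hardly moved when any single array was left out: 55 mitotic genes fell each time and 38 to 41 replication genes did. Members of these and the other lists were chosen with earlier results of these data known. The counts describe the lists and are no test of them.

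Ube2c, the ubiquitin-conjugating enzyme of the anaphase-promoting complex, read 1319, 1071 and 1372 on the untreated arrays and 74.9, 104 and 84.5 on the LPS arrays, a log2 change of -3.66 ± 0.14 (adjusted p = 6.8e-07, limma). Cenpa, the histone H3 variant that marks centromeres, read 556, 532 and 625 untreated and 45.6, 49.4 and 38.5 after LPS (-3.35 ± 0.12, adjusted p = 6.8e-07). The lowest untreated array lay more than 10-fold above the highest LPS array for both. Ccnb2, a mitotic cyclin, went from 915 ± 62.9 to 65.1 ± 12.4 and Mki67, the gene of the proliferation antigen Ki-67, from 1161 ± 134 to 92.8 ± 17.6. Ect2, an exchange factor for RhoA in cytokinesis, was at least 8.98-fold lower and at or below the background limit on all 3 LPS arrays. The probe sets of the kinesin gene Kif2c changed unequally: the brightest read 15.8, 23.2 and 11.4 after LPS, at least 10.4-fold lower, while another read 75.9, 60.1 and 64.2, above the limit, and changed by -1.22 ± 0.13. The CstF-64 arrays, whose labels name no LPS, read 1283 ± 74.8 for Ube2c and 562 ± 46 for Cenpa, close to the untreated arrays. The 1 mitotic gene that rose was Zwint, a kinetochore protein gene (314 ± 46.5 to 545 ± 27.9, 0.78 ± 0.14, adjusted p = 0.00506); 1 of its 6 probe sets was called, and it was not called when its probe sets were averaged.

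The replication genes that fell included parts of the helicase, the polymerases and the clamp. Mcm7, a subunit of the replicative helicase, read 1358, 1394 and 1239 untreated and 231, 325 and 202 after LPS (-2.36 ± 0.18, adjusted p = 2.4e-05), and all 4 of its probe sets fell. Pole, the catalytic subunit of DNA polymerase epsilon, read 180, 168 and 127 untreated and 3.3, 6.5 and 6.2 after LPS, at least 5.01-fold lower. All LPS arrays were below all untreated arrays for both genes. Rfc5, a subunit of the clamp loader, changed by -2.23 ± 0.17, Rpa2, which binds single-stranded DNA, by -2.12 ± 0.19 (2 of 3 LPS arrays above the limit), and Top2a, which untangles DNA, by -2.77 ± 0.17. Pcna, the sliding clamp itself, stayed bright and changed least of the 41 (3041 ± 139 to 2168 ± 215, -0.49 ± 0.14, adjusted p = 0.0386). Its call was lost without LPS 2, without LPS 3 and without any of the untreated arrays.

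Promoter sequence was read for 9882 of the 12393 genes from RefSeq (assembly GRCm38.p6), as the 250 bases upstream of the first listed start, and 6 motifs were searched on both strands. A match is a description of these letters only. The 2 largest falls among the named mitotic genes whose window holds the cell cycle homology region, searched as TTTGAA, are shown because this element is known from promoters of late cell cycle genes. Capitals mark the match on either strand. The sequences are written 5′ to 3′ on the strand of the gene and end upstream of its start. They lie at chr2:164769809-164769928 (Ube2c, plus strand) and chr9:70421622-70421741 (Ccnb2, minus strand).
Ube2c: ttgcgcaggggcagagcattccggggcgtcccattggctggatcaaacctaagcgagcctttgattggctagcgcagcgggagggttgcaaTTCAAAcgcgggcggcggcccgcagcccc
Ccnb2: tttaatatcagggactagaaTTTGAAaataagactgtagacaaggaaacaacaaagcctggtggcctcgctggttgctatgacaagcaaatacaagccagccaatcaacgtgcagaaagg
The element was present in 31.2% of 48 mitotic promoters, 12.2% of 41 replication promoters and 11.6% of all 9882. The CCAAT box was present in 64.6% of the mitotic, 48.8% of the replication and 35.8% of all promoters. The E2F site, searched as TTTNNCGC, was found in 22% of the replication, 12.5% of the mitotic and 6.48% of all promoters. These motifs were not particular to lists that fell. Over all 42 lists the cell cycle homology region ranged from 0% to 44.4%, the latter of 9 promoters of interferon-inducible GTPases. The CCAAT box ranged from 14.3% (NF-kappaB) to 73.3% (endoplasmic reticulum folding), with 64.7% for MHC class I. The E2F site ranged from 0% to the 22% of replication, with 17.6% for MHC class I.

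Genes of DNA repair fell in part. Of 44 measured, 24 fell and 1 rose, with a median of -0.78; leaving out single arrays gave 18 to 23 falls. H2ax, the histone variant that is phosphorylated at DNA breaks, went from 850 ± 163 to 163 ± 41.4 (-2.30 ± 0.19), Brca1, of homologous recombination, from 263 ± 24.6 to 55.9 ± 12.3 (-2.01 ± 0.16), and Parp1, a sensor of strand breaks, from 763 ± 47.8 to 325 ± 27.6 (-1.20 ± 0.11). The adjusted p of these 3 was at most 6.7e-05 (limma). The 1 gene called higher, the nuclease subunit gene Ercc1 (1.12 ± 0.32, adjusted p = 0.0405), was not called without LPS 1, without LPS 3 or without any of the untreated arrays.

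Most called enzymes of nucleotide metabolism fell. Of 35 genes of nucleotide synthesis and turnover, 13 fell and 4 rose, with a median of -0.59. Among the falls, Rrm2, the small subunit of ribonucleotide reductase, read 943, 912 and 686 untreated and 116, 199 and 140 after LPS (-2.40 ± 0.26, adjusted p = 0.00027), and Tk1, thymidine kinase, read 538, 544 and 438 and 31.2, 112 and 67.9 (-2.76 ± 0.31, adjusted p = 0.00028). Groups did not overlap for either. Rrm1 (-1.85 ± 0.16), the dUTPase gene Dut (-1.92 ± 0.21) and Cad (-1.80 ± 0.18), whose product starts pyrimidine synthesis, fell as well.

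The 4 that rose were enzymes of breakdown and salvage. Upp1, uridine phosphorylase, was below the background limit on the untreated arrays (3.8, 4.5 and 7.5) and read 663, 62.4 and 115 after LPS, at least 5.38-fold higher (adjusted p = 0.00545); LPS 1 was far above the other LPS arrays. Cda, cytidine deaminase, went from 48.1 ± 17.4 to 174 ± 39.1 (1.63 ± 0.28). Samhd1, which degrades deoxynucleotides, went from 424 ± 14.3 to 730 ± 138 (0.75 ± 0.13) on its brightest probe set, but another of its 4 probe sets fell. Pnp, purine nucleoside phosphorylase (1.02 ± 0.30, adjusted p = 0.0471), was called only with all arrays or without LPS 2.

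In folate, serine, methionine and polyamine metabolism, 4 of 26 measured genes rose and 7 fell. Mthfd1 (-1.37 ± 0.28), Shmt2 (-1.12 ± 0.20), both of the folate cycle, and the folate carrier Slc19a1 (-1.07 ± 0.16) fell. Cth, which makes cysteine from cystathionine, rose from 42.5 ± 29, with 1 of 3 untreated arrays above the background limit, to 174 ± 4.33 (1.87 ± 0.35). In the polyamine pathway, spermidine synthase Srm fell (-1.40 ± 0.27) while the acetyltransferase Sat1, which starts polyamine breakdown, rose (1.38 ± 0.23). Odc1, ornithine decarboxylase, read 1309, 1211 and 920 untreated and 5126, 2273 and 2287 after LPS (1.39 ± 0.38, adjusted p = 0.0336); the rise was not called without LPS 1 or without any of the untreated arrays. The list's median was -0.02 and became 0.13 with median centring.

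Genes of nuclear transport and chromatin fell in part. Of 48 genes of the nuclear pore and nuclear transport, 22 fell and 1 rose (median -0.48), and of 62 chromatin regulators, 23 fell and 3 rose (median -0.42). Kpna2, an importin alpha, read 1326, 1252 and 1108 untreated and 296, 469 and 410 after LPS (-1.64 ± 0.17, adjusted p = 0.000186), and Kpnb1, importin beta, went from 530 ± 20.3 to 200 ± 14.7 (-1.35 ± 0.10). A different importin alpha, Kpna4, was the transport gene that rose (113 ± 14.3 to 194 ± 23.6, 0.72 ± 0.14, adjusted p = 0.00725). Lbr, the lamin B receptor of the inner nuclear membrane, read 815, 1046 and 920 and 282, 221 and 189 (-1.96 ± 0.17, adjusted p = 6.5e-05). All LPS arrays were below all untreated arrays for Kpna2 and Lbr. Lamin B1 (Lmnb1, -1.48 ± 0.13), the heterochromatin protein gene Cbx5 (-1.79 ± 0.18) and the DNA-bending proteins Hmgb2 (-2.16 ± 0.23) and Hmgb3 (-1.81 ± 0.15) fell too. The deacetylase gene Sirt2 rose from 187 ± 35.6 to 448 ± 36.7 (1.22 ± 0.17) and Brd2, a reader of acetylated histones, from 326 ± 25.2 to 536 ± 30.5 (0.70 ± 0.12).

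Of 56 genes of ribosome biogenesis, 15 fell (26.8%, against 10.4% of all genes) and 0 rose, with a median of -0.49. At an unadjusted p under 0.05 in limma 31 were lower and 1 higher, without a share of all genes at that limit. Nolc1 (-1.56 ± 0.30) and the very bright nucleolin gene Ncl (2387 ± 42.8 to 1402 ± 198, -0.77 ± 0.13, adjusted p = 0.00268), both nucleolar, were among them. The count fell to 9 without LPS 3, to 7 without untreated 1 and to 8 without untreated 2. It was 8 with median centring and 25 with the mean of all probe sets of a gene.

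Most interferon effectors rose. Of 45 measured effectors and nucleic acid sensors, 36 rose and 1 was called lower, with a median of 1.68, and of 14 interferon-inducible GTPases, 9 rose and 0 fell, with a median of 1.48. Leaving out single arrays gave 31 to 36 and 8 to 9 rises. At an unadjusted p under 0.05 in limma 12 of the GTPases were higher and 0 lower. The 1 lower call, Slfn3, read below 5.5 on all 6 arrays, under the background limit.

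Irf7, a transcription factor that amplifies interferon production, read 123, 77.7 and 90 on the untreated arrays and 2459, 2385 and 2592 on the LPS arrays (4.52 ± 0.15, adjusted p = 5.6e-07). Bst2, which tethers budding viruses to the cell, read 131, 147 and 145 and 1440, 1219 and 1411 (3.15 ± 0.13, adjusted p = 1.3e-06). The LPS arrays were close to each other for both and far above the untreated ones. Rsad2, the antiviral enzyme viperin, read 51.8, 49.2 and 58.7 untreated but 4547, 908 and 1136 after LPS (4.68 ± 0.50, adjusted p = 0.000222), so LPS 1 was far above the other LPS arrays. Zbp1, a sensor of Z-form nucleic acid, was at least 11.1-fold higher and Oasl2, of the oligoadenylate synthetase family, at least 12.8-fold. The guanylate-binding proteins, GTPases that attack the vacuoles of intracellular microbes, came up from below the limit: Gbp2 read 2.1, 9.1 and 9.7 untreated and 285, 182 and 192 after LPS (at least 6.89-fold), and Gbp2b, Gbp7, Gbp3 and Gbp6 were at least 8.53-, 6.46-, 4.04- and 1.97-fold higher.

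The promoters of Rsad2 and Bst2 are shown because they had the largest rises among the named effectors with an interferon-stimulated response element, searched as 2 copies of GAAA with 2 bases between them and marked in capitals; Bst2 holds 2 overlapping matches. They lie at chr12:26456473-26456592 (Rsad2, minus strand) and chr8:71537497-71537616 (Bst2, minus strand).
Rsad2: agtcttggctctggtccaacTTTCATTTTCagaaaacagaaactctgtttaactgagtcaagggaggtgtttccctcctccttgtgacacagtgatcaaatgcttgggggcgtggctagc
Bst2: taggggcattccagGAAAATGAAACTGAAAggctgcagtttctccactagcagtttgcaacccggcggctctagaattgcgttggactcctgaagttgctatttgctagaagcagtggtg
The element was found in 25% of 36 effector promoters, in 77.8% of 9 GTPase promoters and in 2.79% of all 9882. It was in 9.56% of the 293 promoters of genes that rose at least 2-fold and in 2.63% of the 418 of genes that fell at least 2-fold.

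Among 34 measured genes for subunits, inhibitors and regulators of NF-kappaB, 11 rose and 0 fell (median 0.29), and 9 to 10 rose when single arrays were left out; at an unadjusted p under 0.05 in limma 16 were higher and 0 lower. Nfkbiz, an atypical nuclear IkappaB protein, read 41.8, 46.7 and 55.1 untreated and 1300, 729 and 730 after LPS (3.89 ± 0.30, adjusted p = 2.8e-05). Nfkbia, the classical cytoplasmic inhibitor, read 2259, 1984 and 2210 and 6275, 4996 and 5172 (1.34 ± 0.13, adjusted p = 0.000146), and all 4 of its probe sets rose. Groups did not overlap in either case. Traf1, an adaptor of TNF receptors, went from 29.6 ± 4.4 (2 of 3 arrays above the limit) to 533 ± 64.3 (3.68 ± 0.19), Tnip1, a partner of the deubiquitinase A20, from 319 ± 62 to 1162 ± 216 (1.82 ± 0.17), and Bcl3, another nuclear IkappaB, from 46.8 ± 2.77 to 198 ± 21.4 (1.82 ± 0.15). Among subunits, outside the naming rule, Nfkb2 was called (1.47 ± 0.17, adjusted p = 0.000303), and Rela (0.22 ± 0.12, adjusted p = 0.281), Relb (0.20 ± 0.23, adjusted p = 0.648) and Rel (adjusted p = 0.109, untreated arrays all at or below the background limit) were not.

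The upstream sequences of Tnip1 and Nfkbia, chosen as the 2 named members with the largest rises and a match to the NF-kappaB consensus, lie at chr11:54962941-54963060 (Tnip1, minus strand) and chr12:55492648-55492767 (Nfkbia, minus strand), and capitals mark the match.
Tnip1: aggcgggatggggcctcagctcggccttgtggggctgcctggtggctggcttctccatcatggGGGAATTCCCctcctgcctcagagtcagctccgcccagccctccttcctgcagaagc
Nfkbia: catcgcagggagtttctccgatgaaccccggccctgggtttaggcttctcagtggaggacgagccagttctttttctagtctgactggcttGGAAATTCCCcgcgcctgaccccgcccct
Such a match occurred in 28.6% of 28 promoters of the NF-kappaB list, in 8.87% of those of genes that rose at least 2-fold, in 4.07% of those that fell at least 2-fold and in 5.82% of all.

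**Figure D2:**
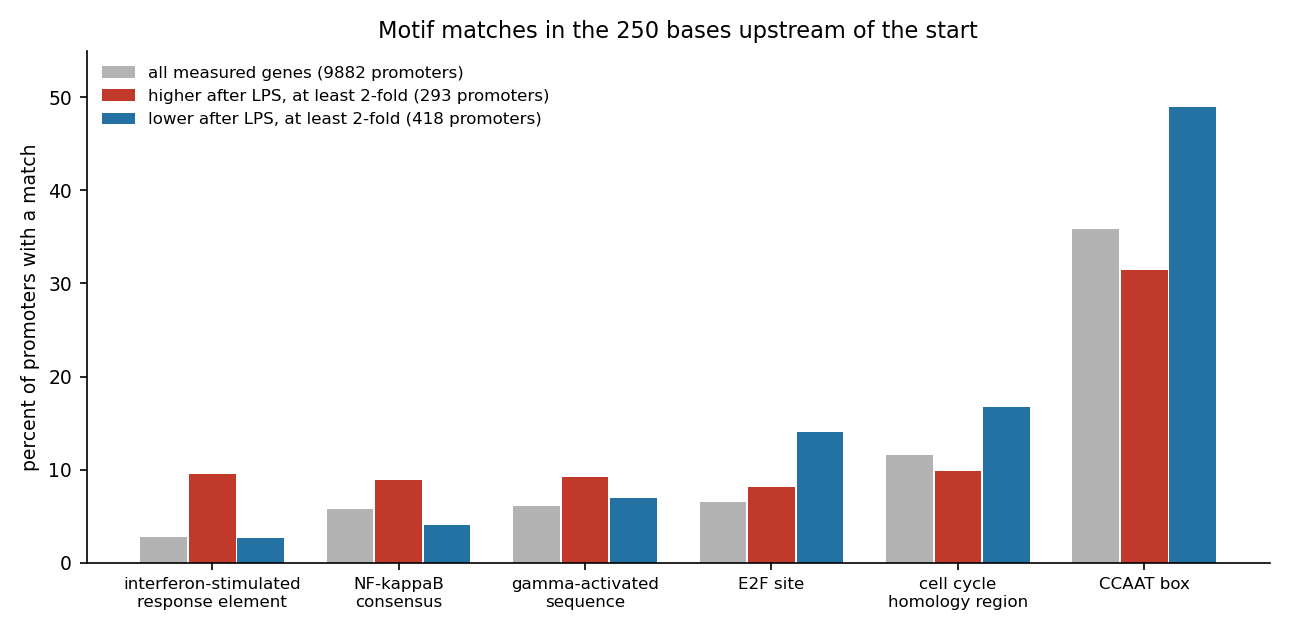
Percent of promoters (250 bases upstream of the start, both strands) with a match to each of 6 motifs, for all measured genes and for genes called at least 2-fold higher or lower. The interferon-stimulated response element stands at 9.56% among risers against 2.79% of all, and the E2F site at 14.1% and the CCAAT box at 49% among fallers against 6.48% and 35.8% of all.

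Transcription factors of several families rose in part at 18 h. Of 61 factors of the AP-1, ATF, C/EBP, KLF, EGR and NR4A families, 21 rose and 3 fell (median 0.42), and 15 to 22 rose when single arrays were left out. Cebpb, a factor of inflammatory and acute-phase genes, went from 637 ± 73.6 to 2813 ± 246 (2.12 ± 0.17, adjusted p = 3.5e-05), Cebpd from 132 ± 20.9 to 418 ± 92.8 (1.56 ± 0.19), and Ddit3, a factor of the stress response, from 77.9 ± 35 to 466 ± 88.9 (2.45 ± 0.28). Maff, a small Maf protein, was at least 2.98-fold higher. Klf10 (204 ± 11.9 to 96 ± 5.49, -0.99 ± 0.22) and the endoplasmic reticulum stress sensor Atf6 (233 ± 38 to 108 ± 7.23, -1.02 ± 0.14) fell. From other lists or none, Dusp1, the phosphatase that switches off p38 and JNK kinases, read 71.8, 72.4 and 102 untreated and 1478, 547 and 842 after LPS (3.25 ± 0.30, adjusted p = 9.4e-05), and Socs3, an inhibitor of cytokine receptor signalling, read 27.3, 29.4 and 25 and 1491, 1486 and 1525, at least 48.1-fold higher (adjusted p = 3.6e-07). The LPS arrays differed by over 2-fold for Dusp1 and were nearly equal for Socs3.

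Antigen processing, proteasome and ubiquitin ligase genes rose in part. Of 20 genes of the immunoproteasome and MHC class I, 8 rose and 0 fell (median 0.55), of 36 subunits of the constitutive proteasome, 8 rose and 0 fell (median 0.30), and of 47 TRIM, RNF and related ligases, 10 rose and 3 fell. At an unadjusted p under 0.05 in limma, 13 genes of MHC class I and 16 of the proteasome were higher and 1 of each lower, again without a share of all genes. Tap1, which carries peptides into the endoplasmic reticulum, went from 105 ± 17.8 to 388 ± 136 (1.72 ± 0.22, adjusted p = 0.000643), its partner tapasin (Tapbp) from 747 ± 175 to 1896 ± 222 (1.35 ± 0.19), and the proteasome activator Psme1 from 639 ± 72.7 to 1340 ± 67.6 (1.06 ± 0.12). The constitutive catalytic subunit Psmb6 rose as well, from 1209 ± 187 to 2247 ± 182 (0.90 ± 0.15, adjusted p = 0.00361). Among ligases, Peli1, of Toll-like receptor signalling, read 122, 117 and 106 untreated and 472, 498 and 429 after LPS (1.90 ± 0.12, adjusted p = 9.4e-06), and Rnf19b (2.32 ± 0.18), Trim30a (2.30 ± 0.17) and Trim25 (1.35 ± 0.12), which acts in RNA sensing, rose. Trim28, a corepressor that silences retroelements, fell from 868 ± 52.1 to 433 ± 35.6 (-0.98 ± 0.12). The proteasome count was 5 without LPS 3, 14 with median centring and 4 after quantile normalization, that of MHC class I 13 with median centring and 1 fall without LPS 1, and that of the ligases 6 without untreated 2.

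Of 36 autophagy genes, 7 rose and 4 fell. Sqstm1, the cargo receptor p62, read 979, 1048 and 1294 untreated and 5408, 4336 and 4606 after LPS (2.10 ± 0.18, adjusted p = 5.9e-05), with no overlap, and Vmp1 (1.11 ± 0.16) and the kinase Tbk1 (0.77 ± 0.13) rose. Pik3c3, the lipid kinase that starts autophagosomes, fell from 86 ± 3.33 to 38 ± 0.265 (-0.96 ± 0.14, adjusted p = 0.00171). The falls numbered 1 to 2 when single arrays other than LPS 2 were left out. Of 56 lysosomal genes, 7 rose (12.5%, against 6.63% of all genes) and 4 fell (7.14%, against 10.4%). The acid phosphatase Acp5 (1.59 ± 0.31) was highest and galactosylceramidase Galc (-1.29 ± 0.17) lowest among the called.

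Transporters of the plasma and lysosomal membranes changed in both directions. Of 38 transporters of amino acids and other nutrients, 10 rose and 6 fell. Slc15a3, a lysosomal carrier of histidine and peptides, read 117, 146 and 109 untreated and 3049, 1736 and 1888 after LPS (3.99 ± 0.24, adjusted p = 8.4e-06). The arginine carrier Slc7a2 was at least 6.45-fold higher, the cystine carrier Slc7a11 went from 80.6 ± 21.5 to 542 ± 135 (2.57 ± 0.31), and the glucose carrier Slc2a1 from 1257 ± 168 to 2993 ± 886 (1.21 ± 0.21). The glutamine carrier Slc38a2 (983 ± 62.3 to 433 ± 92.2, -1.18 ± 0.15) and the nucleoside carrier Slc29a1 (312 ± 55 to 127 ± 17.6, -1.21 ± 0.21) fell. Without untreated 2, 2 of the 6 falls were called.

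Of 41 genes of iron, zinc and copper handling, 12 rose and 3 fell. Lcn2, which binds bacterial siderophores, read 10.3, 6 and 22.8 untreated and 1828, 1595 and 1430 after LPS and was at least 51.6-fold higher (adjusted p = 6.8e-07). The iron importer Slc11a2 read 200, 283 and 318 and 823, 755 and 754 (1.52 ± 0.15, adjusted p = 0.000156). Groups were apart for both. The ferroxidase ceruloplasmin (Cp) was at least 4.8-fold higher, biliverdin reductase Blvrb went from 222 ± 7.09 to 791 ± 164 (1.75 ± 0.16) and the copper pump Atp7a from 323 ± 52.7 to 648 ± 80 (0.98 ± 0.15). The rises numbered 10 to 13 when single arrays were left out, while the falls numbered 0 without untreated 2, 1 without LPS 1 or LPS 3 and 6 without LPS 2.

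Of 46 redox genes, 9 rose and 5 fell. Glrx, glutaredoxin, read 216, 214 and 291 untreated and 1414, 1534 and 1418 after LPS (2.55 ± 0.14, adjusted p = 3.7e-06), and mitochondrial superoxide dismutase Sod2 went from 668 ± 94.9 to 3533 ± 362 (2.38 ± 0.15). The NADPH oxidase genes Cybb (1.00 ± 0.16), Ncf4 (0.91 ± 0.12) and Rac2 (0.69 ± 0.11) rose. Gclc, the catalytic subunit of the first enzyme of glutathione synthesis, fell from 281 ± 21.1 to 106 ± 14.5 (-1.32 ± 0.16, adjusted p = 0.000402), and the thioredoxin inhibitor Txnip from 926 ± 183 to 309 ± 68.9 (-1.55 ± 0.30). Without untreated 2 or untreated 3, 3 falls were called.

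Of 31 genes of sterol and fatty acid synthesis, 9 fell and 0 rose (median -0.55); at an unadjusted p under 0.05 in limma 18 were lower and 0 higher. Fasn, fatty acid synthase, read 453, 648 and 450 untreated and 112, 231 and 189 after LPS (-1.51 ± 0.25, adjusted p = 0.0026), and the elongase Elovl5 read 1262, 1501 and 1418 and 340, 704 and 566 (-1.41 ± 0.22, adjusted p = 0.00211). LPS arrays were below untreated arrays for both. The sterol enzyme genes Dhcr7 (-1.24 ± 0.22) and Nsdhl (-0.83 ± 0.09) fell too. Without untreated 2, 5 of the list fell, and with the mean of probe sets 11 fell and 1 rose. Among 43 genes of nuclear receptors and lipid efflux, 6 rose and 5 fell: the fatty acid receptor Cd36 went from 168 ± 44.3 to 1145 ± 123 (2.71 ± 0.24), the droplet protein Plin2 from 895 ± 193 to 2709 ± 311 (1.60 ± 0.16) and the cholesterol exporter Abca1 from 44.8 ± 10.8 to 109 ± 20.1 (1.08 ± 0.19), while the desaturase Scd1 fell from 708 ± 166 to 284 ± 104 (-1.32 ± 0.29).

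Enzymes that make prostaglandins and leukotrienes changed in both directions. Ptgs2, cyclooxygenase 2, went from 57.3 ± 40.5 to 3994 ± 1909 (5.88 ± 0.39, adjusted p = 1.3e-05) and Ptges, the prostaglandin E synthase next in the pathway, read 59.4, 48.6 and 65.6 untreated and 283, 332 and 310 after LPS (2.19 ± 0.14, adjusted p = 1.0e-05). The prostacyclin receptor Ptgir rose from 62.9 ± 6.83 to 246 ± 96.7 (1.69 ± 0.30). Ltc4s, leukotriene C synthase, read 97, 119 and 136 untreated and 42.7, 50.5 and 52.1 after LPS (-1.08 ± 0.20, adjusted p = 0.00586). Hpgds, prostaglandin D synthase, fell from 134 ± 15.5 to 69.8 ± 29.8 (-0.88 ± 0.23, adjusted p = 0.0273), a call that was lost without LPS 2, without LPS 3 and without any of the untreated arrays. In the whole list of 54 genes of sphingolipids, phospholipids and eicosanoids, 8 rose and 8 fell; the falls numbered 2 to 3 without LPS 3 or without any of the untreated arrays, and 4 with median centring.

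Calls among genes of energy metabolism were near or below the shares of all genes, 6.63% for rises and 10.4% for falls. Of 78 genes of the citric acid cycle and respiratory chain, 2 rose (2.56%) and 9 fell (11.5%). Of 39 of glycolysis and the pentose phosphate pathway, 3 rose (7.69%) and 0 fell, with 7 higher and 4 lower at an unadjusted p under 0.05 in limma. The cytosolic malate dehydrogenase gene Mdh1 (1233 ± 32.1 to 768 ± 52.5, -0.68 ± 0.11), the complex I subunit Ndufs1 (-0.69 ± 0.14) and the pyruvate dehydrogenase kinase Pdk1 (241 ± 9.33 to 109 ± 17.3, -1.07 ± 0.16) fell, and Cox17, a copper chaperone of cytochrome oxidase, rose (654 ± 70.2 to 1384 ± 96.5, 1.07 ± 0.13, adjusted p = 0.000414). Without untreated 1, 4 genes of the citric acid cycle and respiratory chain list fell, and its rises numbered 1 without LPS 2, LPS 3, untreated 1 or untreated 2. In glycolysis the rises numbered 1 without LPS 3 or untreated 1, and median centring gave 6.

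Receptors at the cell surface rose in part. Rises and falls numbered 13 and 3 among 40 scavenger, lectin and Fc receptors and 9 and 4 among 48 immunoglobulin-like and related receptors. Among 50 G protein-coupled receptors and their partners they numbered 10 and 5. The shares that rose were 32.5%, 18.8% and 20%, against 6.63% of all genes. Those that fell were 7.5%, 8.33% and 10%, not above the 10.4% of all genes. Clec4n, the receptor Dectin-2 for fungal mannans, read 26.7, 43.6 and 42.7 untreated and 473, 699 and 973 after LPS (3.80 ± 0.41, adjusted p = 0.000221). Lgals9, galectin 9, read 119, 91.5 and 101 and 1600, 1436 and 1531 (3.72 ± 0.13, adjusted p = 5.6e-07). All LPS arrays exceeded all untreated arrays for both. Cd274, the checkpoint ligand PD-L1, went from 65.3 ± 18.5 to 803 ± 197 (3.38 ± 0.23), the costimulatory receptor Cd40 from 36.9 ± 5.2 (2 of 3 arrays above the limit) to 205 ± 45.7 (2.11 ± 0.19) and the inhibitory receptor Cd300lf from 67.3 ± 9.13 to 444 ± 163 (2.46 ± 0.21). Trem2, a lipid-binding receptor, read 419, 1020 and 985 untreated and 8.7, 142 and 132 after LPS (-3.28 ± 0.67, adjusted p = 0.00829), so that LPS 1 was under the background limit and the other LPS arrays were over it; 1 of its 2 probe sets fell. Csf1r fell from 3140 ± 391 to 1919 ± 73.1 (-0.70 ± 0.13) and Adgre1 rose from 511 ± 95.9 to 1687 ± 471 (1.67 ± 0.21).

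Among G protein-coupled receptors, the chemerin-binding receptor Ccrl2 read 33.7, 48.9 and 36.6 untreated and 570, 248 and 293 after LPS (2.78 ± 0.27, adjusted p = 0.000114), and the formyl peptide receptor Fpr2 went from 38.3 ± 1.94 to 133 ± 50.7 (1.44 ± 0.25). The fractalkine receptor Cx3cr1 read 540, 791 and 980 untreated and 147, 351 and 278 after LPS (-1.57 ± 0.30, adjusted p = 0.00612), and the sphingosine phosphate receptor S1pr1 fell from 123 ± 20.1 to 49 ± 2 (-1.12 ± 0.17). Untreated arrays varied widely for Cx3cr1 but did not overlap the LPS arrays. Falls among the lectin group numbered 1 without LPS 3 or untreated 3. Without untreated 2, 2 immunoglobulin-like receptors and 3 G protein-coupled receptors fell.

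Of 43 genes of integrins and adhesion, 7 rose and 4 fell. Itga5, which pairs with beta 1 as a fibronectin receptor, read 104, 196 and 204 untreated and 794, 833 and 747 after LPS (2.21 ± 0.24, adjusted p = 0.000229), while Itga4 read 183, 199 and 203 and 53, 53.4 and 27.8 (-1.88 ± 0.19, adjusted p = 0.000138). The groups were apart for both, in opposite directions. Itgb7 rose from 24.4 ± 13.4, with 1 of 3 untreated arrays above the background limit, to 187 ± 21.2 (2.47 ± 0.28) and Itgam, of the complement receptor Mac-1, from 168 ± 38.5 to 486 ± 39 (1.48 ± 0.16). Itgb5 fell from 296 ± 20 to 138 ± 16 (-1.03 ± 0.15) on all 4 of its probe sets.

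Of 73 cytoskeletal genes, 11 rose and 5 fell, and of 68 small GTPases and their regulators, 13 rose and 5 fell. Stmn1, a protein that destabilises microtubules, read 1360, 1188 and 1208 untreated and 240, 232 and 261 after LPS (-2.30 ± 0.11, adjusted p = 2.7e-06), and the tubulin gene Tubb4b fell from 1057 ± 53.2 to 470 ± 96.5 (-1.17 ± 0.14) while Tuba1a rose from 517 ± 55.4 to 1180 ± 336 (1.14 ± 0.18). Gsn, which severs actin filaments, fell (2286 ± 337 to 963 ± 267, -1.27 ± 0.23). Marcksl1 rose from 486 ± 69.4 to 1836 ± 168 (1.90 ± 0.28), and its relative Marcks, an actin-regulating substrate of protein kinase C, was at least 3.03-fold higher. Among GTPases, Rala went from 385 ± 53.5 to 964 ± 145 (1.29 ± 0.15) together with its exchange factor Ralgds (119 ± 6.91 to 302 ± 54.5, 1.24 ± 0.15), and Rap1b from 1035 ± 102 to 2200 ± 267 (1.08 ± 0.12). Iqgap3, a scaffold of proliferating cells, fell from 427 ± 58.8 to 55.8 ± 6.93 (-2.67 ± 0.14, adjusted p = 3.5e-06). Cytoskeletal rises numbered 18 with median centring.

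Secreted and surface proteins of complement and coagulation showed 8 rises and 2 falls among 41 genes. Cfb, complement factor B, was at least 13.9-fold higher. Procr, the endothelial protein C receptor, read 31.2, 44.4 and 39.5 untreated and 1604, 581 and 682 after LPS (4.10 ± 0.48, adjusted p = 0.000357), Plaur, the urokinase receptor, went from 149 ± 27.9 to 1030 ± 404 (2.64 ± 0.35) and the protease inhibitor Slpi from 99.8 ± 6.25 to 447 ± 86 (2.01 ± 0.24). LPS 1 was the highest array for Procr by more than 2-fold. Gas6, a ligand of the receptors that take up dying cells, fell from 195 ± 78.1 to 62 ± 9.14 (-1.40 ± 0.29). The falls numbered 1 without LPS 1, untreated 2 or untreated 3.

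Both promoters and inhibitors of cell death were among the genes that rose. Of 57 measured, 15 rose and 6 fell (13 to 14 and 4 to 6 with single arrays left out). Casp4, the caspase that detects intracellular LPS, read 31.9, 63.3 and 41 untreated and 413, 284 and 437 after LPS (2.76 ± 0.26, adjusted p = 9.4e-05), and the death receptor Fas was at least 5.96-fold higher. Cflar, which blocks caspase 8, read 111, 202 and 140 and 472, 618 and 651 (1.88 ± 0.23, adjusted p = 0.000503), and the inhibitor of apoptosis Birc3 went from 311 ± 57.7 to 782 ± 45.2 (1.31 ± 0.15). Groups did not overlap for Casp4 or Cflar. Tnfrsf1b, the second TNF receptor, went from 150 ± 47.4 to 2797 ± 632 (4.13 ± 0.23). Birc5, survivin, which also works in mitosis, fell from 446 ± 48 to 51.4 ± 8.76 (-2.84 ± 0.13), the cell cycle inhibitor Cdkn2c from 294 ± 20.1 to 111 ± 18.6 (-1.31 ± 0.15) and Casp2 from 307 ± 18.7 to 139 ± 17.5 (-1.07 ± 0.16). Cdkn1a, the inhibitor p21 and outside the naming rule, read 1129, 989 and 1663 untreated and 3820, 1419 and 1968 after LPS, and these ranges overlapped (adjusted p = 0.145).

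**Figure D3:**
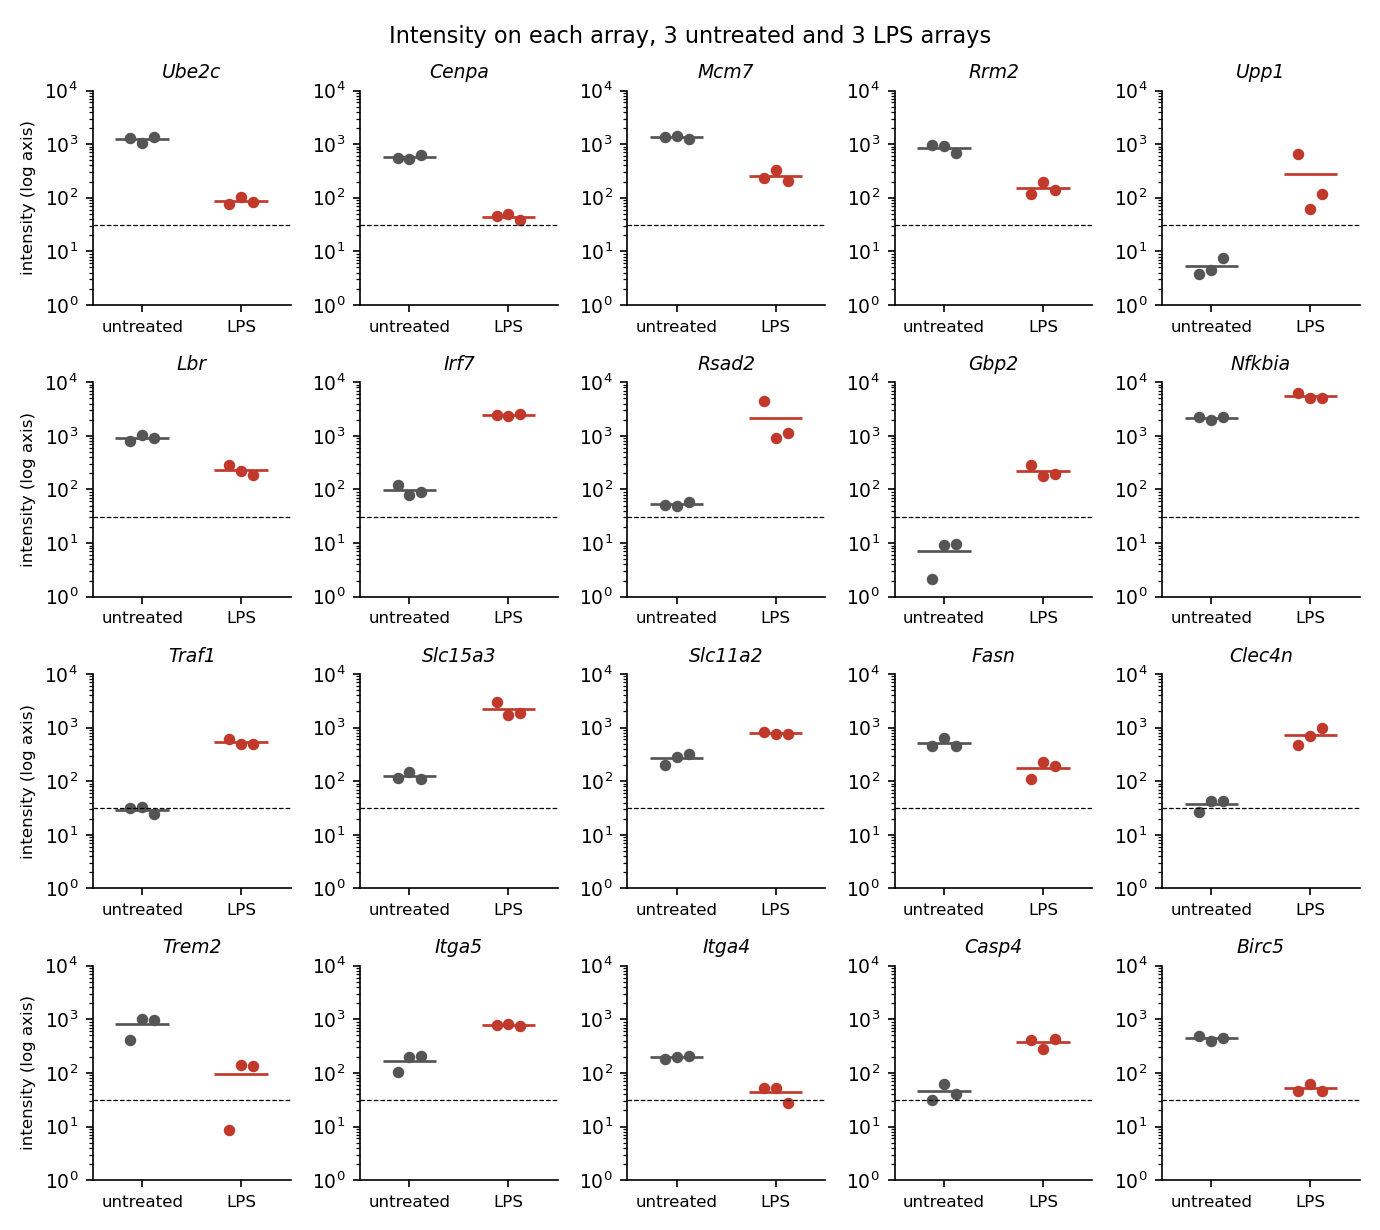
Intensity (log axis) of 20 named genes on each of the 3 untreated (grey) and 3 LPS arrays (red, LPS 1 to 3 from left to right), with a bar at the mean of each group and the background limit of 31.2 dashed. The groups are apart in every panel, and LPS 1 lies away from the other LPS arrays for Upp1, Rsad2 and Trem2.

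In several further lists the counts of called genes were small. Rises and falls numbered 3 and 2 among 29 aminoacyl-tRNA synthetases, 3 and 4 among 44 translation factors, 2 and 6 among 62 genes of the mitochondrial ribosome and import, 2 and 3 among 45 chaperones, and 4 and 5 among 51 genes of endoplasmic reticulum folding. They numbered 5 and 2 among 40 phosphatases and kinases of the MAP kinase pathway, 5 and 6 among 59 genes of Wnt, Notch and TGF-beta signalling, 5 and 7 among 56 glycosyltransferases and 3 and 2 among 23 clock genes. Among these lists the share that rose was largest for clock genes (13%) and the MAP kinase pathway (12.5%), against 6.63% of all genes. The share that fell was largest for glycosyltransferases (12.5%, against 10.4%). Apart from the chaperones, a count of each list moved by over 1.5 times when single arrays were left out, with 0 to 6 rises and 0 to 9 falls, and each of the 6 arrays did so for at least 1 list. Members called under every alternative include the seryl-tRNA synthetase Sars (0.88 ± 0.17), Mrpl27 (1.08 ± 0.17), the stress phosphatase subunit Ppp1r15a (1.55 ± 0.24), the TGF-beta receptor Tgfbr1 (-0.94 ± 0.19), the sialyltransferase St6gal1 (-1.69 ± 0.20) and the clock factor Bhlhe41 (1.51 ± 0.22).

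**Figure D4:**
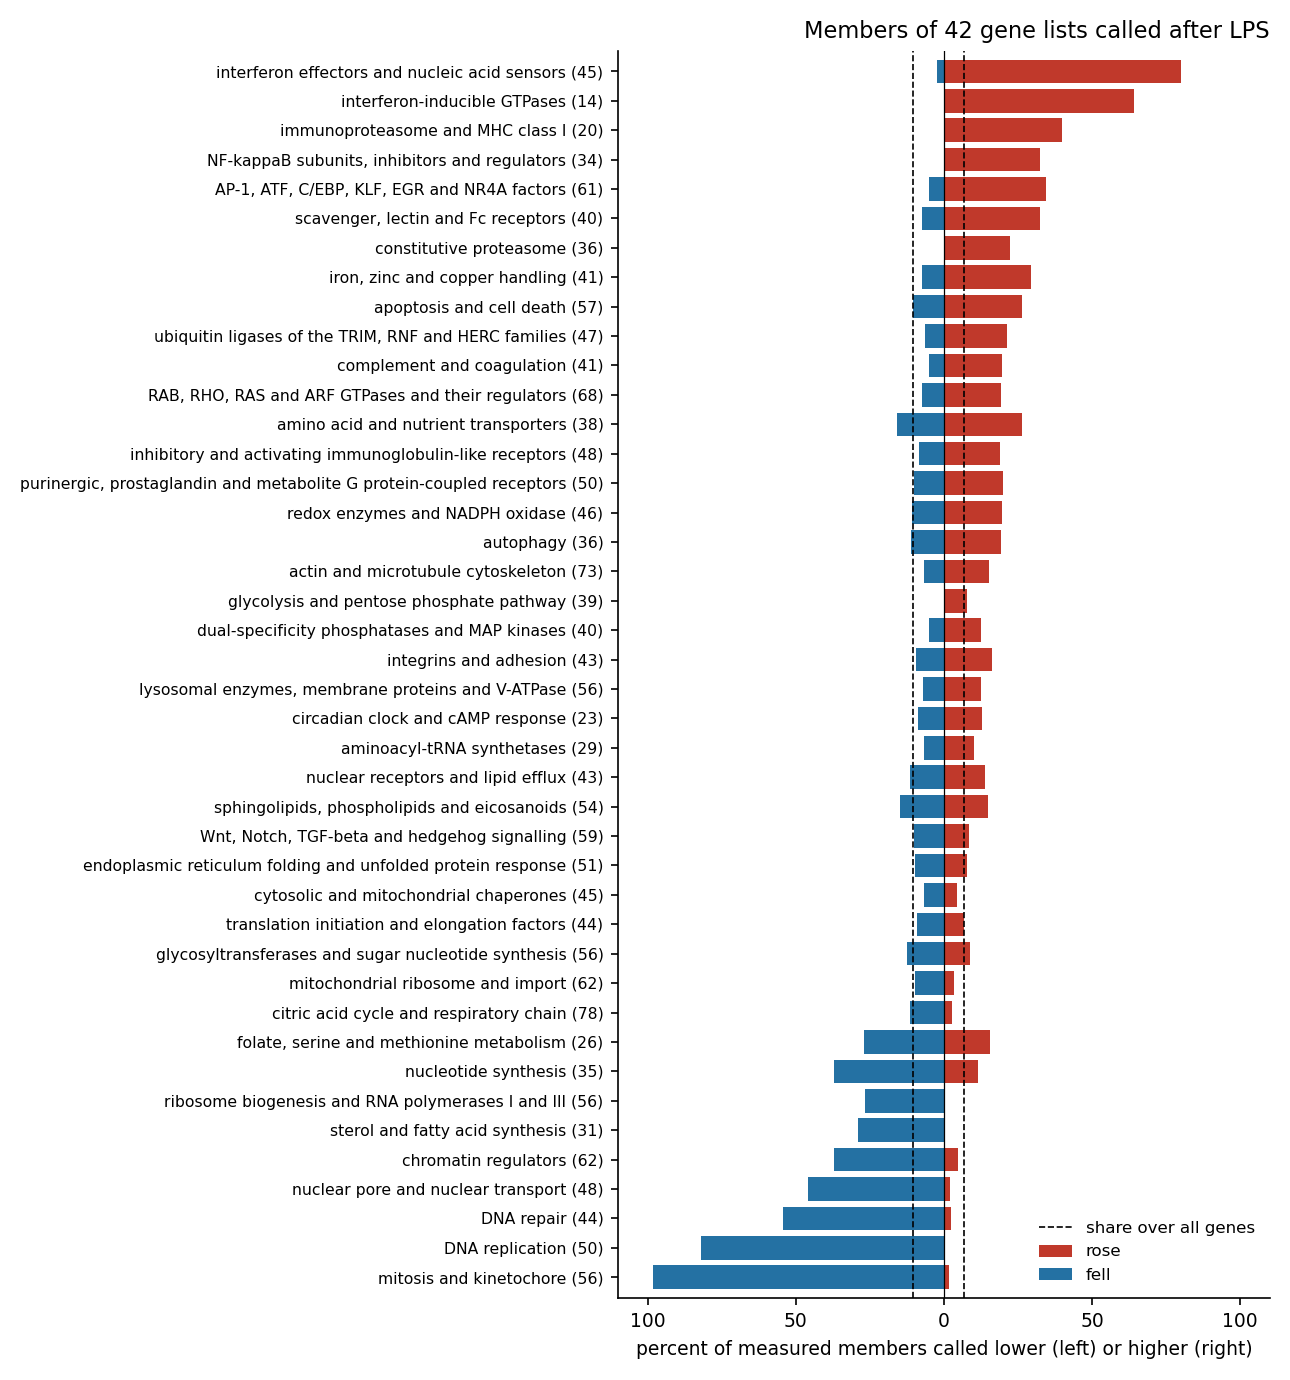
Percent of the measured members of each of 42 gene lists that rose (red, right) or fell (blue, left) after LPS, with the number measured in brackets and the shares over all genes dashed (6.63% and 10.4%). The lists run from the mitosis list, where 98.2% fell, to the interferon effectors, where 80% rose.

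The brightest probe set of some genes crossed the background limit. In 72 genes all untreated arrays were at or below 31.2 and all LPS arrays above it, with a call, and in 82 genes the reverse held. After Lcn2 and Socs3, the largest bounds among the former belonged to Il1a, interleukin 1 alpha (at least 24.8-fold), and Vegfc, a lymphatic growth factor (at least 16.6-fold; outside the naming rule). Those among the latter belonged to the mitotic genes Kif2c (on this probe set only) and Ect2 and to Ube2t, a ubiquitin-conjugating enzyme of DNA crosslink repair (at least 7.28-fold lower).

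Genes in none of the lists made up 536 of the 822 called higher and 961 of the 1287 called lower. The 2 largest rises among them were Csf3, the gene of granulocyte colony-stimulating factor (43.9 ± 43.1 to 3708 ± 1353, 6.26 ± 0.53), and Ccl5, a T cell chemokine (5.88 ± 0.34). Acod1, which makes itaconate in mitochondria, went from 90.4 ± 88 to 4302 ± 303 (5.77 ± 0.62, adjusted p = 0.000233), and the acute-phase gene Saa3 read 30.3, 67.6 and 90 untreated and 1132, 2289 and 2793 after LPS (4.78 ± 0.38), lowest of the LPS arrays on LPS 1. On the untreated arrays, 1 of 3 was above the background limit for Csf3 and 2 of 3 for Acod1 and Saa3. The largest falls outside the lists included Igfbp4, which binds insulin-like growth factors: it read 753, 932 and 979 untreated and 83.5, 152 and 127 after LPS (-2.78 ± 0.19, adjusted p = 1.6e-05), and all 6 of its probe sets fell. Shcbp1 (-2.82 ± 0.25, 2 of 3 LPS arrays above the limit) and the helicase gene Ercc6l (at least 3.15-fold lower), both of mitosis, fell as well.

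Probe sets of the same gene did not always move together, which was tested with limma's diffSplice over 4956 genes with several probe sets. Unequal change was called for 290 genes (5.85%), and for 173, 116 and 140 without untreated 1, 2 and 3. In Cp, every probe set was at background on the untreated arrays (means of 1.9 to 14.1), and 5 of 7 rose, to means between 39.7 and 154, so sizes of change cannot be compared among them. The other probe sets of Cp read 8.63 ± 5.03 and 1.57 ± 0.252 after LPS and were not called. In Foxm1, a transcription factor of mitotic genes, 1 probe set went from 151 ± 26.3 to 3.83 ± 0.737, below the limit, while the brightest went from 193 ± 45.5 to 90.4 ± 5.27. Top2a had 1 probe set that fell by 2.77, to 158 ± 44.4, and another that read at most 2.0 on every array. In Cp and Top2a the probe sets that did not follow were under the background limit on every array.

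Opposite calls were rare. In 9 genes (0.182%) 1 probe set was called higher and another lower. Mtm1, a phosphoinositide phosphatase, had the widest gap (2.65 log2 units): its brightest probe set read 521.1, 623.5 and 427.8 untreated and 174.7, 185.4 and 122.0 after LPS, and the dimmest 59.1, 61.0 and 53.5 untreated and 83.7, 167.9 and 153.6 after LPS. The groups were apart on both, in opposite directions. Runx1 (2.18), Lmbrd1 (1.66), Atxn7l1 (1.49), Samhd1 (1.33), Sppl2a, Rab2a, Nmt1 and Pabpn1 were the others, of which the last 4 were outside the naming rule. In Runx1 the called rise started from untreated arrays at background (28.2, 4.3 and 19.9). Its called fall ended at background (5.3, 18.4 and 11.9 after LPS), so its gap is no size of change, and its brightest probe set was not called. The test for unequal change did not call Samhd1 (adjusted p = 0.0508, limma's diffSplice). The call of Lmbrd1 was lost without untreated 1. Whether the opposite probe sets of these genes read different transcript forms was not tested.

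**Figure D5:**
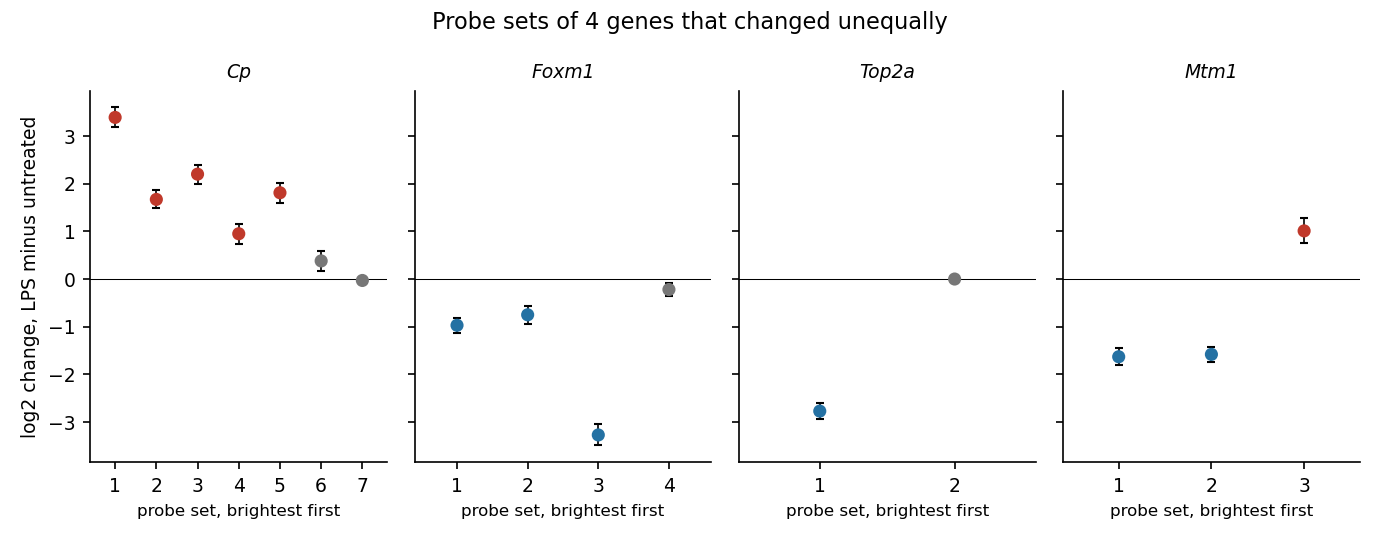
Log2 change (LPS minus untreated, with the SE of the fit) of each probe set of 4 genes, ordered from the brightest, with called rises red, called falls blue and the rest grey. In Mtm1 the dimmest probe set rose by 1.01 while the other probe sets fell by 1.63 and 1.58; values of probe sets at background in 1 group, as for Cp and the third probe set of Foxm1, are fitted values and no sizes of change.

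The LPS arrays were set against the CstF-64 arrays as a further group whose labels name no LPS, and 3443 probe sets (15.2%) differed. This comparison shares the LPS arrays with the first and is not independent of it. Array CstF-64 1 stood apart from its group: it correlated with the other CstF-64 arrays at 0.975 and 0.9757, while those correlated at 0.9894. It was the highest of the group for Ccl2 (354, 53.9 and 34) and Ccl3 (3289, 1007 and 1150), but not for Ccl6 (4.5, 8.4 and 3.8). The CstF-64 arrays were not equal to the untreated arrays for every gene. Irf7 read 120 ± 12.9 on the CstF-64 arrays, Slc15a3 303 ± 89.2, Stmn1 1230 ± 102 and Lbr 721 ± 115. LPS minus CstF-64 was 4.23, 2.81, -2.27 and -1.60 for these genes, against 4.52, 3.99, -2.30 and -1.96 for LPS minus untreated. Other genes differed less from the CstF-64 than from the untreated arrays: LPS minus CstF-64 was -0.76 for Cx3cr1 (adjusted p = 0.129, limma), -0.76 for Gas6 (0.119), 0.56 for Abca1 (0.0875), -0.64 for Dhcr7 (0.0836) and 1.11 for Ddit3 (0.0239), against -1.57, -1.40, 1.08, -1.24 and 2.45 for LPS minus untreated. Cd36 read 168 ± 44.3 on the untreated arrays but 6.13 ± 4.95 on the CstF-64 arrays, below the background limit. These genes were chosen after their values were seen.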

How the data were processed

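Expression was measured on 9 Affymetrix arrays of RAW 264.7 cells, 3 each untreated, LPS-stimulated and overexpressing CstF-64. The table deposited by the authors holds 1 linear intensity per probe set and array. For software and normalization, the sources used here say nothing, but trimmed means (2% from each end) of 150.05 to 150.06 show arrays scaled alike, and the values were used as they stood. With 20380 probe sets naming 1 gene, 691 several and 1555 none, 12393 genes were named, each by its brightest probe set.

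Tests ran in limma 3.58.1 (R 4.3.3) on log2(intensity + 13) over all 9 arrays, with an intensity trend and Benjamini-Hochberg adjustment over 22626 probe sets, and were tested on simulated data. An intensity of 31.2 or less counts as background: a change from there is given as "at least", the geometric mean of the brighter group over 31.2. Comparisons were LPS with untreated and LPS with CstF-64; alternatives are in the closing section. The number of arrays limits the precision.

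The gene lists and members were chosen with earlier results of these data known. Genes were named by rule: the 15 largest non-overlapping changes in each direction, up to 5 called genes per list and direction by adjusted p (and, in lists with under 3 called, the brightest others), the 10 largest changes per direction outside the lists, 5 genes each for unequal and opposite probe sets, runs of neighbours, called markers and the 10 brightest called genes. Promoter sequences and motif positions are from RefSeq's GRCm38.p6 table, and the 6 motifs were those given with the results and the gamma-activated sequence TTCNNNGAA (6.05% of all promoters, 9.22% of those of genes at least 2-fold higher and 6.94% of those at least 2-fold lower).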

Additional observations from a re-analysis of the deposited data

How the results depend on the processing

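Probe set counts, list counts and named genes were recomputed under 15 alternatives of scaling, pseudocount, filter, fit and arrays left out. List counts were also taken with the mean of probe sets, and list and probe set counts at a 2-fold limit. Unequal probe sets were recomputed under 12 alternatives and LPS against CstF-64 under 5. Motif shares and runs of neighbours were not recomputed. Median centring gave 2228 higher and 1455 lower probe sets in place of 1341 and 2414, and a 2-fold limit gave 611 and 940. Leaving out 1 array gave 924 to 1272 higher and 1475 to 2252 lower, lowest for both without untreated 2. Genes with unequal probe sets numbered 290, with 189 at a pseudocount of 1, 425 at a pseudocount of 50, 195 without dim probe sets and 116 to 298 with 1 array left out. Probe sets that differed between the LPS and CstF-64 arrays numbered 3038 to 3487. The labels do not say whether the replicate numbers pair the arrays. Deviations of same-numbered arrays from their group means correlated at 0.042, 0.158 and -0.056, and those of differently numbered arrays at -0.138 to 0.084. With 3 arrays a group these values cannot settle a pairing. With the replicate number as a block, 1355 probe sets were higher and 2419 lower, 335 genes were unequal, and 11 of 375 calls of named genes were lost.

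Of the 375 calls of named genes, 283 held under all 15 alternatives, none changed sign, and the most lost to 1 alternative was 74, without untreated 2. Counts for gene lists stayed within 1.5 times in 1218 of 1428 comparisons, the mean of probe sets and the 2-fold limit included. A 2-fold limit can only lower a count. It left 0 of 8 rises for the proteasome, 0 of 5 for Wnt signalling and 30 of 36 for interferon effectors. Of the falls it left 14 of 24 for DNA repair, 4 of 9 for sterol synthesis and 53 of 55 for mitosis. Under the other alternatives, rises and falls that moved further, beside those above on the deposited scale with all 9 arrays in the fit, were as follows. With the mean of probe sets they were 0 and 55 for mitosis, 0 and 25 for ribosome biogenesis, 3 and 5 for aminoacyl-tRNA synthetases, 1 and 5 for translation factors, 1 and 11 for sterol synthesis, 2 and 1 for glycolysis, 4 and 4 for autophagy and 6 and 11 for glycosyltransferases. With a pseudocount of 50 they were 0 and 23 for DNA repair and 3 and 1 for clock genes. With the 6 arrays alone they were 0 and 19 for DNA repair, 3 and 1 for aminoacyl-tRNA synthetases, 1 and 2 for translation factors, 5 and 0 for MAP kinases, 1 and 7 for the citric acid cycle, 3 and 1 for glycolysis, 6 and 1 for autophagy, 9 and 1 for complement and 2 and 6 for Wnt signalling. With median centring they were 1 and 8 for ribosome biogenesis, 3 and 1 for aminoacyl-tRNA synthetases, 5 and 2 for translation factors, 2 and 1 for the mitochondrial ribosome, 39 and 0 for interferon effectors, 13 and 0 for MHC class I, 14 and 0 for the proteasome, 15 and 1 for metal handling, 10 and 1 for MAP kinases, 8 and 4 for sphingolipids, 5 and 5 for the citric acid cycle, 6 and 0 for glycolysis, 3 and 1 for chaperones, 9 and 3 for endoplasmic reticulum folding, 10 and 1 for autophagy, 18 and 4 for the cytoskeleton, 12 and 1 for complement, 9 and 1 for glycosyltransferases, 6 and 1 for clock genes and 1 and 0 for neutrophil markers. With quantile normalization they were 2 and 1 for aminoacyl-tRNA synthetases, 1 and 7 for translation factors, 2 and 2 for the mitochondrial ribosome, 4 and 0 for the proteasome, 8 and 5 for sphingolipids, 2 and 2 for glycolysis, 9 and 2 for autophagy, 6 and 4 for glycosyltransferases, 5 and 1 for clock genes and 1 and 0 for neutrophil markers. Without dim probe sets they were 3 and 6 for aminoacyl-tRNA synthetases, 38 and 0 for interferon effectors, 7 and 1 for MAP kinases and 3 and 1 for glycolysis. With array weights they were 4 and 7 for aminoacyl-tRNA synthetases, 5 and 5 for translation factors, 5 and 8 for the mitochondrial ribosome, 11 and 1 for MHC class I, 15 and 0 for the proteasome, 8 and 2 for MAP kinases, 3 and 2 for glycolysis, 3 and 6 for chaperones, 7 and 8 for endoplasmic reticulum folding, 11 and 5 for lysosomes, 15 and 8 for the cytoskeleton, 6 and 13 for glycosyltransferases and 0 and 1 for T cell markers. With the replicate number as a block they were 2 and 7 for translation factors, 6 and 1 for MAP kinases, 10 and 1 for complement and 3 and 9 for glycosyltransferases. The cause of these shifts was not tested. The number of arrays and the background limit what could be seen: 3458 genes were at or below the background limit in both groups.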

Other observations

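Called genes that lie next to each other among the 12369 measured genes placed in order by the RefSeq gene table formed 17 runs of 3 or more rises and 18 of 3 or more falls; these are counts, with no test. Of runs of 4 or more, 5 rose and 1 fell. The longest, on chromosome 11, held 7 genes: the chemokines Ccl5, Ccl9, Ccl6, Ccl3 and Ccl4, which draw leukocytes to a site, followed by Wfdc18 and Wfdc21, with a median log2 change of 2.65. The call of Ccl9 was lost when any single array was left out. Gbp7, Gbp3, Gbp2b and Gbp2 stood side by side on chromosome 3 (median 3.12), Slfn8, Slfn2, Slfn1 and Slfn4, of a family that rises on immune activation, on chromosome 11 (2.63), and Ifi209, Ifi204, Mndal and Ifi202b, of the interferon-inducible DNA sensor family, on chromosome 1 (2.97). These are gene families, and probe sets of close relatives may share transcripts, which was not tested.

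Other runs joined genes that are not relatives. Slc7a7, Mrpl52, Mmp14 and Lrp10 on chromosome 14 rose with a median of 1.33: an amino acid carrier, a protein of the mitochondrial ribosome, a membrane-bound matrix protease and a receptor of the LDL receptor family. The 1 falling run of 4, Fancf, Gas2, Tubgcp5 and Nipa2 on chromosome 7 (median -0.81), depended on single arrays: the calls of Fancf and Gas2 were lost without LPS 3, untreated 1 or untreated 2, and that of Tubgcp5 without untreated 2.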
